A study of Mus musculus with 34 samples.

Results

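The regions described here are BATF binding sites of regulatory T (Treg) cells at which the BATF score was lower with the Foxp3 mutation R397W and at which no Foxp3 peak was listed. They were chosen by their scores in 4 libraries: a peak was taken when the mean of the 2 R397W libraries plus 1 was at most 0.5 times the mean of the 2 control libraries plus 1, when both control scores were at least 20, and when it overlapped no Foxp3 peak by 1 bp. Of 9973 BATF peaks in the table, 879 met this rule. A further 463 peaks met the same score limits but overlapped a Foxp3 peak. "Lost" is used below for these limits only: both R397W scores corresponded to at most 3 reads at 27 of the 879 sites, and to no read at 5 of them.

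Mouse CD4+ T cells were sorted fresh from lymph nodes and spleen on the strain C57BL6/J, and binding was measured by chromatin immunoprecipitation and sequencing (ChIP-seq). Treg cells (CD4+hCD2+) and conventional T (Tconv) cells (CD4+hCD2-) came from Foxp3-IRES-hCD2 mice, in which human CD2 on the cell surface reports Foxp3, with 2 BATF libraries and 4 IRF4 libraries each. R397W Treg cells were CD4+hCD2+GFP- cells from mice with the alleles Foxp3R397W-IRES-hCD2 and Foxp3-IRES-GFP, and their controls were cells of the same gate from Foxp3WT-IRES-hCD2/Foxp3-IRES-GFP mice, with 2 BATF libraries each. All mice of the R397W experiment thus also carried a GFP-marked Foxp3 allele, and the GFP- gate left out the cells that used it. Foxp3 was measured in 2 libraries each of Treg cells, of Treg cells lacking BATF (Foxp3-IRES-hCD2.Batf-/-), of central Treg cells (cTreg, CD4+hCD2+CCR7hiCD62LhiCD44lo) and of effector Treg cells (eTreg, CD4+hCD2+CCR7loCD62Llo). Ages, sexes and the number of mice per library are not given in the sources used here, so each p-value measures the spread between libraries, which may be technical.

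BATF is a basic leucine zipper factor that dimerises with JUN proteins on AP-1 elements, and in T cells it binds many composite elements together with IRF4, an interferon regulatory factor induced by T cell receptor signals. Both factors are known to be needed for the effector state of Treg cells, in which genes such as Il10, Icos and Tigit are active. Foxp3, the lineage factor of Treg cells, binds DNA through a forkhead domain, in which the mutation R397W replaces an arginine by a tryptophan. The sites below are places where the mean BATF score was lower in the R397W than in the control libraries and on which no Foxp3 peak lay. Whether the state of Foxp3 caused the lower scores was not tested.

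Scores are the authors' normalised peak scores, in which 1 read was worth between 0.439 and 3.46 units depending on the library. Reads in the BATF peaks of this table ranged from 144319 (a control library) to 1009580 (a Tconv library), so the control libraries, which set the rule, were among the shallowest. At the median lost site the 2 control libraries held 29 and 14 reads and the 2 R397W libraries 9 and 22 reads. A BATF peak in the Foxp3 gene, a check of the sort, scored 66.1 and 66.3 in Treg and 2.11 and 0 in Tconv libraries. Sites are given in mm10 and carry the name of the closest protein-coding gene, if its body lay at most 100000 bp away; a site may act on another gene.

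Sequence was read only where a site overlapped a promoter window, the 250 bases before to 50 bases after a gene's start as listed by RefSeq for GRCm38.p6. This held for 38 of the 879 sites, which touched 44 windows. The AP-1 element TGANTCA, searched on both strands, was present in 5 of these 44 windows (11.4%), in 161 of the 3696 windows on any BATF peak of the table (4.36%), and in 2565 of all 32851 windows (7.81%). The stretches around these elements are shown because they are the lost sites at which the AP-1 letters could be read. Each runs 5′ to 3′ along the strand of the named gene and ends before its start, and capitals mark the AP-1 element.
Tnfrsf8: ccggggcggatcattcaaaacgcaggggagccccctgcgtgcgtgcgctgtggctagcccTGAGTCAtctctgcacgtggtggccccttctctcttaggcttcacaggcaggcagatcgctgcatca
Arl14ep: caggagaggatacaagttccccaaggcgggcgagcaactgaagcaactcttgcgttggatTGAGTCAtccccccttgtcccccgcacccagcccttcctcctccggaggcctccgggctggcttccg
LOC115489947: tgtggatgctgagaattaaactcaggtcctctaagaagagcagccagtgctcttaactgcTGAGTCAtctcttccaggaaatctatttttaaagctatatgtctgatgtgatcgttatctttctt
Gm38748: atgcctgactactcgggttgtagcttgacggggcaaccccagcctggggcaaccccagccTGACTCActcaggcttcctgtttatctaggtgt
Gm33332: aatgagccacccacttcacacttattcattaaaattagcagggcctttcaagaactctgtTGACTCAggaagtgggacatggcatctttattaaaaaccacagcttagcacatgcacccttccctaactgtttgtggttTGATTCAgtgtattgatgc
All 6 elements lay inside the lost peak, between 11 and 89 bp from its centre. The stretches lie at chr4:145315230-145315356 on the minus strand (Tnfrsf8, which encodes the activation receptor CD30), chr2:106974465-106974591 on the minus strand, chr4:136028885-136029009 on the minus strand (a peak assigned to Eloa), chr5:146857763-146857855 on the plus strand (a peak assigned to Rasl11a) and chr10:19718808-19718965 on the minus strand (a peak assigned to Il20ra, which encodes a chain of the receptors for IL-20 family cytokines). The joint elements of AP-1 with an IRF element (TTTC, 4 bases, then TGANTCA; or GAAA directly before TGANTCA) were in none of the 44 windows and in 39 and 41 of the 32851. The ETS core AGGAAG was in 13 of the 44 (29.5%, against 35.4% of all windows), the Runx element TGTGGTT in 1 (2.27%, against 5.27%) and the forkhead element TGTTTAC in 0 (against 3.65%). A match is a description of these letters only.

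Of these 5 sites, 3 were higher in Treg than in Tconv cells in the libraries that took no part in choosing them. So were 82.5% of all 879 sites, 34.2% of the 38 in promoter windows and 22.1% of all peaks. With 5 sites, nothing is read from this count about the AP-1 element. At the Tnfrsf8 start BATF scored 124 and 79.4 in the 2 Treg and 27.5 and 14.1 in the 2 Tconv libraries, a rise of 4.84 times (limma, adjusted p = 5.56e-05). The control libraries scored 106 and 118 and the R397W libraries 11.97 and 49.9. At the site near Rasl11a the Treg libraries scored 48.2 and 44.0 against 2.11 and 5.71 in Tconv libraries (a rise of 10.3 times, adjusted p = 1.01e-04), and the controls scored 49.4 and 48.4 against 3.42 and 6.24 with R397W. The site near Eloa also passed the test (a rise of 3.28 times, adjusted p = 0.0403). Its Treg scores of 33.3 and 9.84 overlapped its R397W scores of 18.8 and 12.5, and its controls scored 47.8 and 55.3. The sites at Arl14ep and near Il20ra did not (adjusted p = 0.513 and 0.335). At Arl14ep the Treg libraries scored 30.4 and 20.3 and the Tconv libraries 37.3 and 26.8, so that the groups overlapped. The controls scored 52.4 and 55.3 there and the R397W libraries 18.8 and 27.0. Near Il20ra the Treg libraries scored 17.3 and 15.1 and the Tconv libraries 11.97 and 7.91. The controls scored 33.9 and 34.6 there and the R397W libraries 17.1 and 8.32. At both sites the Treg scores overlapped the R397W scores and lay below both control scores.

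In the R397W experiment, the contrast that chose the sites, the median score was 44.7 and 48.4 in the 2 control libraries and 15.4 and 15.2 in the 2 R397W libraries, with a median ratio of 0.347. Ratios ran from 0.0272 to 0.500. Both control scores lay above both R397W scores at 875 of the 879 sites, against 28.8% of all peaks, and 8.04% of all peaks were called lower with R397W by limma. The rule fixed these directions, so nothing is read from them.

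The strongest control scores were at Ankrd12, Smad3, Atxn1, Polk and Hivep3, and all of these sites lay on an IRF4 peak. The peak chr17:65961622-65962022, 3681 bp from Ankrd12, scored 180.5 and 325 in the control and 97.5 and 152 in the R397W libraries. Inside Smad3, which encodes a transcription factor of the TGF-β pathway, chr9:63738285-63738685 scored 208 and 269.8 and 111 and 119.9. Inside Atxn1, a transcriptional repressor gene, chr13:45687621-45688021 scored 177 and 266 and 22.2 and 63.8. At Ankrd12 and Smad3 the R397W scores lay below the controls and still above the control level of a median site, while the ratio at Atxn1 was deeper, at 0.197. The other strong sites were at Polk (a ratio of 0.388), Hivep3 (0.397), Txlnb (0.479), Fam110a (0.373), Cyp4f39 (0.307), Gxylt2 (0.160) and Dpep2 (0.215).

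The deepest ratios were at weaker sites. At chr8:94827987-94828387 in Ciapin1, whose product acts in iron-sulphur protein assembly, the controls scored 37.0 and 34.6 and both R397W libraries 0, which is at least 9.93-fold lower when 3 reads per library are taken as the floor. On the same floor the scores at a site near Col12a1 were at least 8.49-fold lower and those at Capn5 at least 6.14-fold lower. Among sites with deep ratios the strongest control scores were 94.1 and 83.0, at chr11:20282578-20282978, 19202 bp from the amino acid transporter gene Slc1a4, where the R397W libraries scored 5.13 and 0.693. The other sites of this kind were near Slc24a3, Gm4846 and Slc25a17 and at a site on chromosome 10 with no gene within 100000 bp.

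Sites on both sides of the limit had like scores. Just inside it were sites near Plg (control 37.0 and 27.7, R397W 15.4 and 15.9), in Fbxw11 (control 71.0 and 48.4, R397W 20.5 and 38.1) and on chromosome 13 with no gene near. Just outside it, at a ratio of 0.501, was a peak in Fas, the death receptor gene, with control scores of 125 and 121 and R397W scores of 37.6 and 84.5. Peaks in Zfp280b and on chromosome 18 lay equally close outside it.

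The question of whether these sites are Treg sites was addressed with the earlier Treg and Tconv libraries, which the rule did not use. BATF was higher in Treg than in Tconv cells at 725 of the 879 sites (82.5%, against 22.1% of all 9973 peaks) and lower at 0 (against 9.66%), by limma with Benjamini-Hochberg adjustment over all peaks. The limit of 20 in both control Treg libraries itself left out peaks that are low in Treg cells. Of the peaks with a control score under 20, 24.5% were lower and 4.22% higher. Of the peaks that met this limit, without Foxp3 and with a ratio above 0.5, 6.68% were lower and 12.4% higher. At an unadjusted p under 0.05, 6 of the 879 sites were lower, and edgeR's quasi-likelihood test on recovered reads also called 0 lower, with 728 higher. Median scores were 35.1 and 28.9 in the Treg and 5.63 and 4.83 in the Tconv libraries. The median difference was 2.47 on the log2 scale of score plus 1, which is 5.54 times, and over all peaks it was -0.05. Rises given as times below are on this scale. Both Treg scores lay above both Tconv scores at 812 sites (92.4%, against 32.8% of all peaks). Of the 154 sites without a call, most still had a higher Treg mean, since the Treg mean was below the Tconv mean at 28 of the 879 sites.

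The calls depended on having both Treg libraries. Without the first, 0 of the 879 sites passed the limma test (the lowest adjusted p was 0.052), with 622 higher at an unadjusted p under 0.05 and a median difference of 2.33. Without the second, 296 passed and the median difference was 2.66. Quantile normalisation left 540 sites higher and 9 lower, and over all peaks it changed the split from 2206 higher and 963 lower to 1661 higher and 1340 lower.

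**Figure D1:**
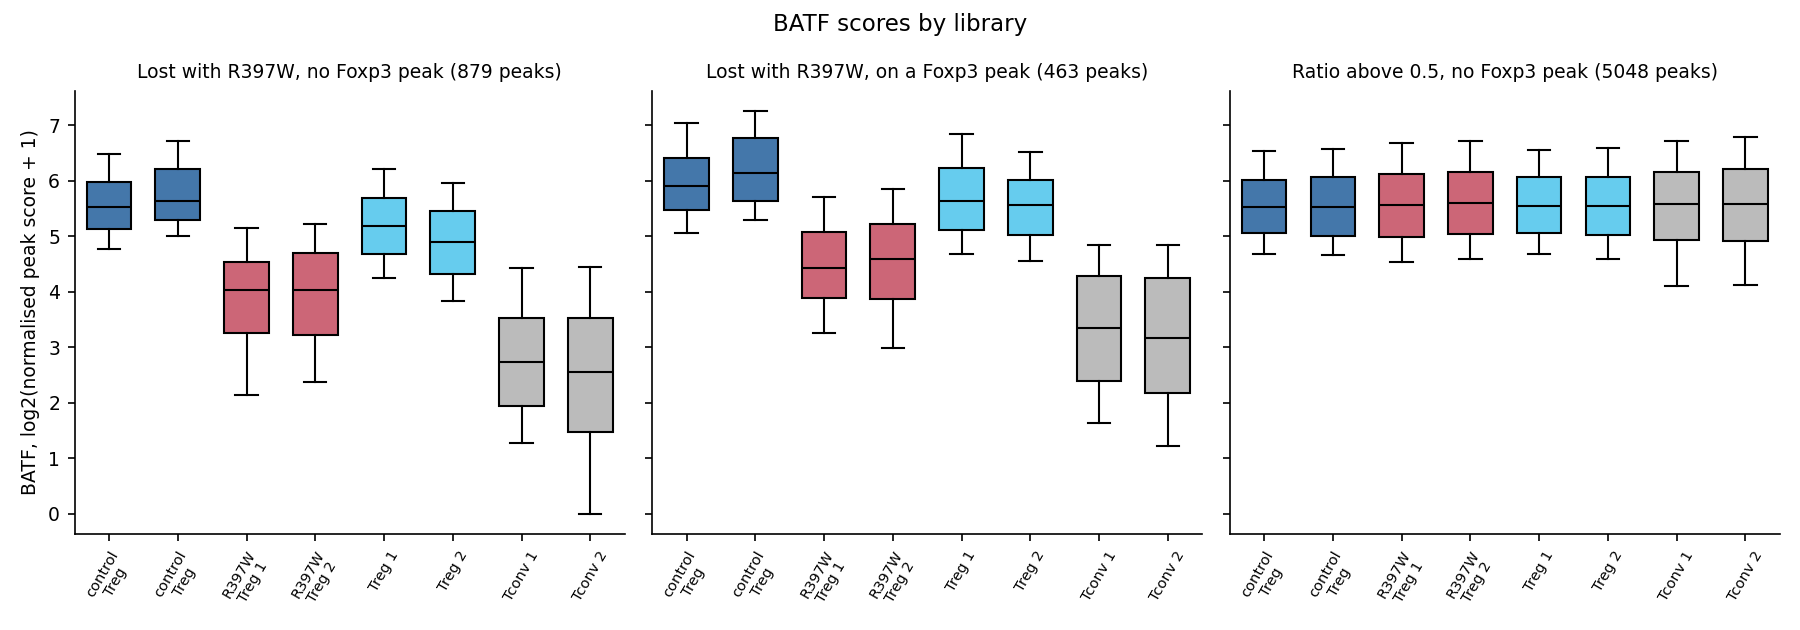
BATF scores by library at the 879 lost sites without a Foxp3 peak, the 463 lost sites on a Foxp3 peak and the 5048 peaks without a Foxp3 peak whose ratio was above 0.5. The vertical axis is log2 of the normalised score plus 1; boxes span the quartiles with the median as a line, and whiskers reach the 10th and 90th percentiles. In both groups of lost sites the R397W medians lie between the Treg and the Tconv medians, and in the right panel all 8 libraries share about 1 level.

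The median R397W scores at these sites lay between the median scores of Treg and Tconv cells. The R397W mean was above the Tconv mean at 760 of the 879 sites (86.5%, against 51.8% of all peaks). Both R397W scores were above both Tconv scores at 553 (62.9%, against 29.2% of all peaks). The median difference between R397W Treg and Tconv cells was 1.26 on the log2 scale of mean score plus 1. The earlier Treg libraries, which the rule did not use, lay below the controls: the median difference of their mean from the control mean was -0.61 on this scale, and that of the R397W mean from theirs was -1.0. Both earlier Treg scores were above both R397W scores at 663 sites (75.4%, against 25.4% of all peaks). The R397W libraries took part in the rule, so these shares are descriptions.

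Across the 879 sites, the deeper the fall with R397W, the larger was the difference between Treg and Tconv cells, with Pearson's r = -0.36 and Spearman's rho = -0.39 between the 2 log2 differences. Over all 9973 peaks these were -0.73 and -0.64. The 2 axes share no library, but they share the peak list and the base composition and strength of each site. Of the 238 sites with a ratio of at most 0.25, 222 (93.3%) were higher in Treg cells, and of the 641 with a higher ratio 503 (78.5%) were. Strength went the same way, with 257 of 275 sites (93.5%) called where the control mean was at least 60 and 468 of 604 (77.5%) below that.

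**Figure D2:**
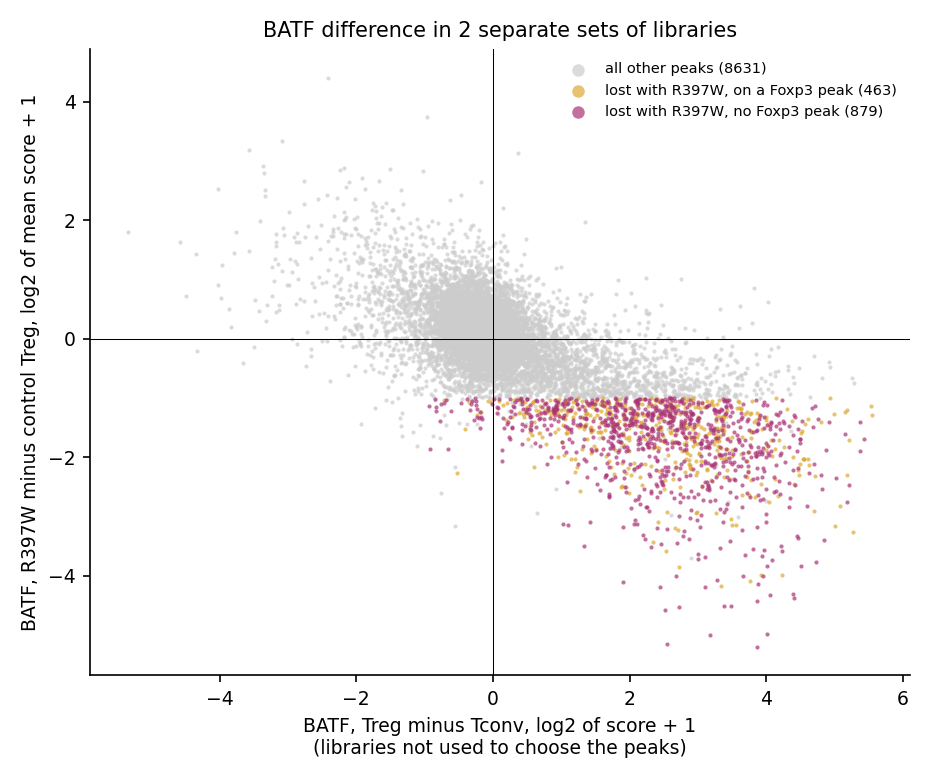
Log2 difference in BATF between R397W and control Treg cells (vertical) against that between Treg and Tconv cells (horizontal) for 9973 peaks, 1 point each. Most of the 879 lost sites without Foxp3 (purple) lie at the lower right with the 463 lost sites on a Foxp3 peak (yellow). Grey points are all other peaks, and those below -1 include peaks with a control score under 20.

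The largest rises in Treg over Tconv cells were at sites with almost no BATF reads in Tconv cells. At chr5:147055866-147056266, inside the ubiquitin ligase gene Lnx2, the Treg libraries scored 39.9 and 44.6 and both Tconv libraries 0, at least 24.6-fold higher on a floor of 3 reads per library (adjusted p = 1.37e-05). Both Tconv libraries were also at 0 near the kinase gene Map4k4 (Treg 49.4 and 32.8, at least 24.0-fold higher) and near Eya3 (Treg 27.4 and 45.3, at least 21.2-fold higher). Near Itgav, which encodes the integrin chain αV used to activate TGF-β, the Treg libraries scored 51.8 and 53.8 and the Tconv libraries 0.704 and 0. Dnase1l3 (Treg 67.9 and 47.3, Tconv 1.41 and 0) and the mineralocorticoid receptor gene Nr3c2 (Treg 60.1 and 49.2, Tconv 1.41 and 0) complete the 6 largest rises. At all 6, both R397W scores were above both Tconv scores, with 15.4 and 18.7 at Lnx2 and 32.5 and 13.2 at Itgav. This held at 62.9% of all 879 sites and 29.2% of all peaks. The 6 were picked by their rise over Tconv cells, whose scores there were at most 1.41, so nothing is read from it. Both Tconv scores were 0 at 12 of the 879 sites, and the median difference was 2.47 also with these at their bounds.

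IRF4, the partner of BATF, was read at 454 IRF4 peaks that overlapped 453 of the 879 sites (51.5%, against 40.7% of all BATF peaks). IRF4 was higher in Treg than in Tconv cells at 346 of the 454 (76.2%, against 15.8% of all 9134 IRF4 peaks) and lower at 2 (0.441%, against 8.39%). All 4 Treg scores lay above all 4 Tconv scores at 310 of them (68.3%, against 15% of all IRF4 peaks). The median difference was 1.64 on the log2 scale, or 3.13 times. IRF4 peaks that overlapped any BATF peak of the table were higher at 22.8%. IRF4 in R397W cells was not analysed here, so these values concern Treg and Tconv cells only.

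The largest IRF4 rise was at the site in Spag9, a scaffold gene of the JNK pathway, with Treg scores of 26.7, 17.4, 69.5 and 57.1 and Tconv scores of 0, 1.39, 1.80 and 2.29. The 4 Treg scores ranged widely, but all lay above every Tconv score. At 2510009E07Rik the Treg libraries scored 34.1, 20.6, 23.5 and 26.4 and the Tconv libraries 0, 0, 0 and 4.57, and at Maml3, a Notch co-activator gene, 35.0, 22.2, 12.8 and 23.0 against 0, 0, 5.41 and 0. At Ly75, which encodes the uptake receptor DEC-205, IRF4 scored 19.4, 25.4, 22.4 and 21.3 against 0.808, 4.18, 0 and 0. The adjusted p was 1.32e-04 or less at these 4 sites.

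The 2 exceptions were at Mctp2, with IRF4 scores of 22.1, 15.9, 22.4 and 21.3 in Treg and 44.4, 45.3, 56.8 and 43.4 in Tconv libraries (adjusted p = 0.00184), and at Qpct, with 34.1, 38.1, 44.9 and 42.6 against 48.5, 81.5, 78.5 and 62.9 (adjusted p = 0.0243). At both, every Tconv score was above every Treg score. Among the sites that passed the test, the smallest rises were at Ak3 (a rise of 1.55 times, adjusted p = 0.0491) and Cd82 (a rise of 1.61 times, adjusted p = 0.0431). The Ak3 groups overlapped, and the calls at Ak3, Cd82 and Qpct were lost when single libraries were left out.

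BATF calls were also counted by whether a site lay on an IRF4 peak. BATF was higher in Treg cells at 416 of 453 sites with an IRF4 peak (91.8%, median difference 2.68 log2) and at 309 of 426 without one (72.5%, 2.23 log2). Median control means were 58.9 and 40.5, so the 2 groups also differed in strength, whose part in the shares was not tested.

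**Figure D3:**
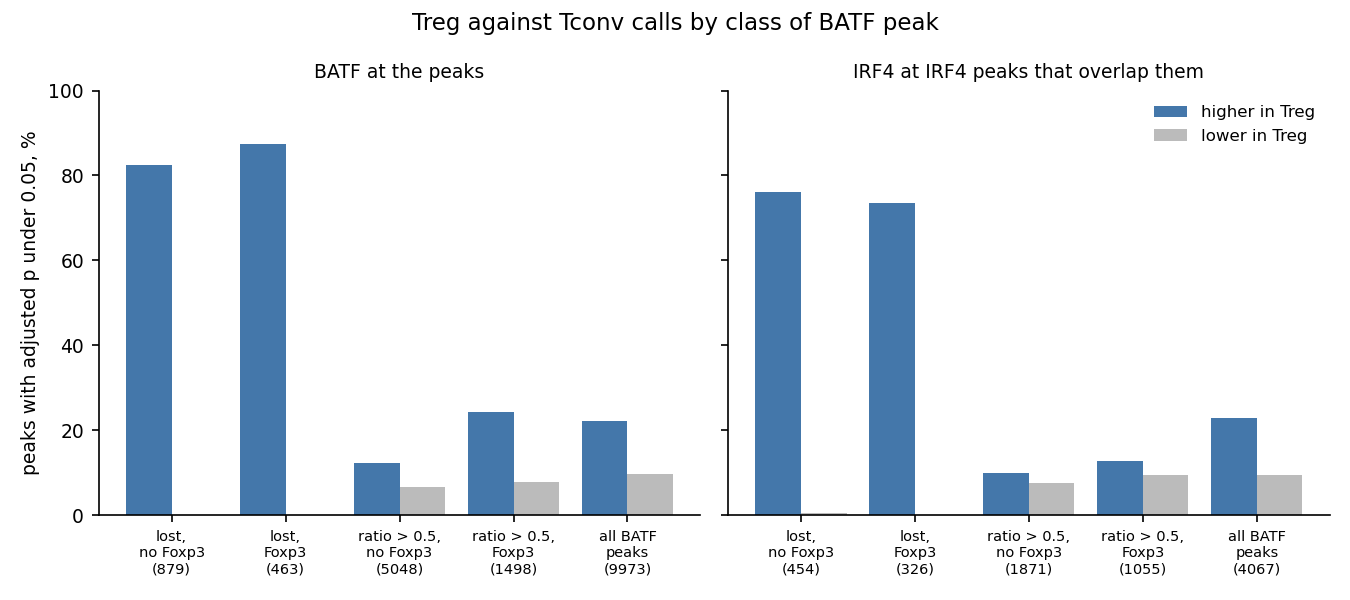
Share of peaks called higher (blue) or lower (grey) in Treg than in Tconv cells, for BATF at the peaks (left) and for IRF4 peaks that overlap them (right), by class of BATF peak, with the number of peaks under each class. The 2 lost classes stand at 82.5% and 87.5% for BATF and 76.2% and 73.6% for IRF4, and the classes above the ratio limit at 10% to 24.3%.

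The lost sites on a Foxp3 peak are the closest comparison, as they met the same score limits. Of the 463 lost sites on a Foxp3 peak, 405 (87.5%) were higher in Treg cells, with a median difference of 2.47 log2, and 240 of their 326 IRF4 peaks (73.6%) were. Their median scores lay above those of the sites without Foxp3 in every library, with 58.6 and 69.2 in the controls and 20.5 and 22.9 with R397W, and 70.2% of them lay on an IRF4 peak. Among the 5048 peaks without Foxp3 whose ratio was above 0.5, 624 (12.4%) were higher in Treg cells and 337 (6.68%) lower, with median scores between 44.7 and 47.1 in all 8 libraries. The differences between these classes were not tested.

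In position, the lost sites without Foxp3 lay away from gene starts. They overlapped a promoter window at 38 of 879 sites (4.32%), against 1.94% of the lost sites on a Foxp3 peak, 45.7% of the peaks without Foxp3 above the ratio limit and 30.1% of all peaks. They lay within a protein-coding gene body at 511 sites (58.1%, against 71.9% of all peaks), and 56 had no gene within 100000 bp. Many were absent from the list of peaks called for Treg and Tconv cells alone: 463 of the 879 (52.7%, against 88% of all peaks) overlapped a peak of the authors' first BATF table. Chromosome X held 11 of the sites among 349 peaks (3.15%), and the autosomes held between 5.98% (chromosome 7) and 14.2% (chromosome 16) of their peaks.

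Of the 38 sites at gene starts, 13 (34.2%) were higher in Treg cells, with a median difference of 0.55 log2, and of the 841 others 712 were (84.7%, 2.52 log2). The median Tconv mean was 18.1 at the gene starts and 5.01 elsewhere, and the difference between the 2 shares was not tested. The strongest was the start of Fam110a, chr2:151974110-151974510, with control scores of 126 and 239, R397W scores of 42.7 and 92.2, Treg scores of 193 and 149 and Tconv scores of 19.0 and 10.1 (a rise of 11.5 times, adjusted p = 7.88e-07). BATF also rose in Treg cells at the starts of the potassium channel gene Kcnk10 (22.4 times), of Csf1, which encodes a growth factor of macrophages (3.43 times), and of the anthrax toxin receptor gene Antxr2 (2.68 times). It did not pass the test at Cd37, a tetraspanin gene, where Treg scores of 57.1 and 53.2 overlapped Tconv scores of 45.1 and 59.8, at Celf3 (adjusted p = 0.448) or at Cmtm7 (adjusted p = 0.0508). At Cd37 the controls nevertheless scored 55.5 and 79.5 and the R397W libraries 39.3 and 26.3.

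The 823 sites with a gene fell to 682 genes, of which 579 had 1 site, 75 had 2 and 28 had 3 or more. Of the 682 genes, 265 (38.9%) had no other BATF peak in the table, 335 (49.1%) also had a peak above the ratio limit, and 93 (13.6%) also had a lost site on a Foxp3 peak. Within 10000 bp of another such site lay 127 of the 879.

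The counts for gene lists that follow stand against 879 of all 9973 peaks (8.81%) that were lost sites without Foxp3, and against the 725 of these 879 (82.5%) that rose in Treg over Tconv cells. Among effector Treg genes, 16 of the 67 BATF peaks (23.9%) were lost sites without Foxp3, at Il10 (4), Tigit (4), Rora (3), Cd44 (3), Icos (1) and Bhlhe40 (1), and 15 of the 16 rose in Treg over Tconv cells. Their median difference was 2.68 log2, beside 2.47 over all 879. The exception was a site in Cd44, the hyaluronan receptor gene that marks activated T cells, with Treg scores of 36.9 and 21.7 and Tconv scores of 16.2 and 16.7 (adjusted p = 0.172). At the other peaks of this list, none of them lost without Foxp3, 34 of 51 were higher in Treg cells, against 22.1% of all peaks. Rises at these genes were thus not confined to the lost sites without Foxp3. Il10 encodes the suppressive cytokine IL-10. Its strongest site, chr1:131022556-131022956 in the gene body, scored 103 and 145 in the control, 44.5 and 50.6 in the R397W, 110.1 and 106 in the Treg and 14.8 and 12.7 in the Tconv libraries (a rise in Treg over Tconv cells of 7.39 times, adjusted p = 2.03e-06). Both R397W scores lay below every Treg and control score and above every Tconv score.

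The next Il10 site, chr1:131003075-131003857, 15988 bp from the gene, scored 47.8 and 100.3 in control, 17.1 and 32.6 in R397W, 53.6 and 61.7 in Treg and 8.45 and 3.08 in Tconv libraries. The other 2 Il10 sites rose by 4.58 times (adjusted p = 0.00506) and 2.36 times (adjusted p = 0.0431), the last of which was lost without either Treg library and under 6 other settings. The table held 3 more peaks at Il10: 1 lost site on a Foxp3 peak and 2 peaks above the ratio limit without Foxp3. The nearest Foxp3 peak lay between 12539 and 38780 bp from the 4 sites.

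Tigit encodes an inhibitory receptor that competes with CD226 for shared ligands. Of its 6 BATF peaks, 4 were lost sites without Foxp3 and 2 were lost sites on a Foxp3 peak. The strongest of the 4, chr16:43690157-43690557, scored 80.2 and 104 in control and 25.6 and 36.7 in R397W libraries, and its R397W scores overlapped the Tconv scores of 33.8 and 32.5. In the Treg libraries it scored 66.1 and 84.0, a rise of 2.21 times (adjusted p = 0.0019). The other 3 rose more in Treg over Tconv cells, by 5.18, 8.96 and 10.2 times, and their Tconv scores were at most 7.47. At Icos, the inducible costimulator gene, the single site scored 41.6 and 38.0 in control, 10.3 and 3.46 in R397W, 35.1 and 23.6 in Treg and 3.52 and 0 in Tconv libraries. At Rora, a nuclear receptor gene of tissue Treg cells, the 3 sites rose by 9.54, 14.6 and 5.58 times.

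Among Treg core genes, 5 of 20 peaks were lost sites without Foxp3 (25%, against 8.81% of all peaks), and all 5 rose in Treg over Tconv cells, as 82.5% of all 879 did (median difference 2.52 log2). There were 2 near Nrp1, which encodes the surface receptor neuropilin-1, and chr8:128535678-128536078 scored 103 and 89.9 in control, 13.7 and 39.5 in R397W, 69.1 and 55.1 in Treg and 5.63 and 1.76 in Tconv libraries (a rise of 14.7 times, adjusted p = 2.67e-05). Single sites lay near Ctla4, the inhibitory receptor gene (a rise of 4.25 times), near Ikzf2, which encodes Helios (5.74 times), and in Il2rb, the β chain gene of the IL-2 receptor (5.67 times). R397W scores at Ctla4 (18.8 and 20.1) were above both Tconv scores (5.63 and 6.59), whereas at Ikzf2 the Tconv libraries (14.1 and 1.32) were too far apart to be separated from R397W (13.7 and 21.5).

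**Figure D4:**
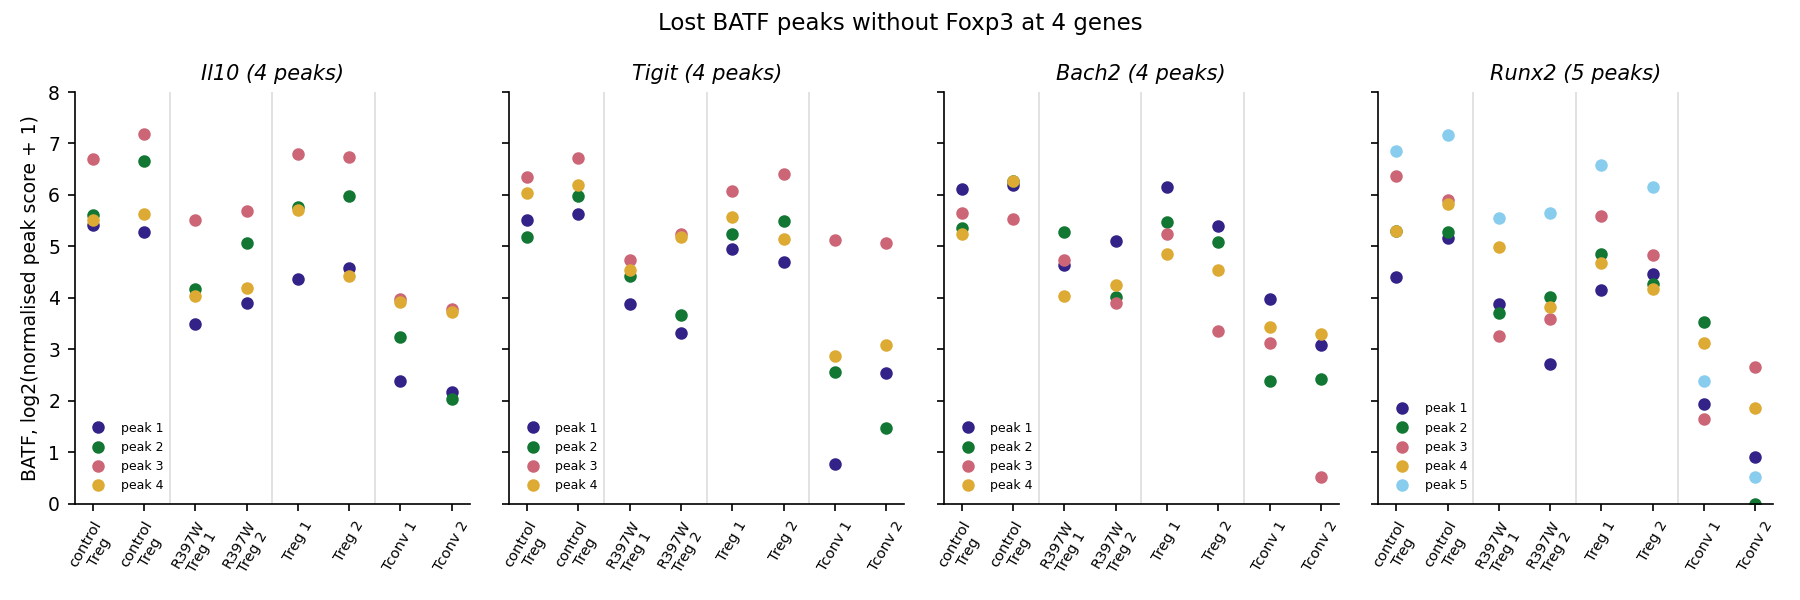
BATF scores, as log2 of score plus 1, in each of 8 libraries at the lost sites without Foxp3 of Il10, Tigit, Bach2 and Runx2, with 1 colour per site in order of position. At the strongest Il10 site the R397W scores of 44.5 and 50.6 lie below both control and both Treg scores and above both Tconv scores.

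Genes of central or naive T cells held 9 lost sites without Foxp3 among 84 peaks (10.7%, near the 8.81% of all peaks), and 8 of the 9 rose in Treg over Tconv cells, a share near the 82.5% of all 879 (median difference 2.25 log2). The repressor gene Bach2, which restrains effector differentiation, had 4 of its 14 peaks among them, and the other 10 included 9 above the ratio limit. The Bach2 site with the highest control mean, chr4:32179754-32180154, scored 67.9 and 72.6 in control, 23.9 and 33.3 in R397W, 70.2 and 41.3 in Treg and 14.8 and 7.47 in Tconv libraries (a rise of 4.75 times, adjusted p = 4.80e-04). At the next, chr4:32217566-32217966, the R397W libraries disagreed, with 37.6 and 15.2 against control scores of 40.1 and 76.1. The remaining 2 passed the test with adjusted p = 0.0308 and 0.0278, and these calls were lost without either Treg library, without the second Tconv library and with quantile normalisation. The survival gene Bcl2 had a site that rose by 5.77 times, and further sites lay in Foxo1 (3.14 times) and the IL-6 receptor gene Il6ra (4.34 times) and near the TGF-β receptor gene Tgfbr2 (8.99 times). In Tcf7, the gene of the factor TCF-1 of naive and memory cells, the Treg scores of 26.2 and 9.19 overlapped the Tconv scores of 9.16 and 14.1 (adjusted p = 0.594).

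The AP-1 and IRF factor genes held 8 such sites among 41 peaks (19.5%, against 8.81%), and all 8 rose in Treg over Tconv cells, against 82.5% of all 879 (median difference 2.38 log2). Of these, 4 are the Bach2 sites counted above, and the others were near Irf2, with control scores of 83.3 and 69.2, R397W scores of 15.4 and 22.9 and a rise in Treg over Tconv cells of 11.4 times, at the start of Atf3, the gene of a stress-induced repressor (2.81 times), at Batf3, a close relative of Batf (4.91 times), and near Fosl2 (5.98 times). No site fell to Batf or Irf4 themselves. Of T cell receptor and costimulation genes, 4 of 58 peaks were lost without Foxp3 (6.90%, against 8.81%) and all 4 rose, against 82.5% of all 879: 3 near Lcp2, which encodes the adaptor SLP-76 (by 7.19, 6.12 and 6.15 times), and 1 in the NF-κB gene Rel (6.71 times).

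The T helper list held 2 sites among 21 peaks (9.52%, against 8.81%), of which 1 rose. In Gata3, the lineage factor gene of type 2 helper cells, chr2:9884232-9884632 scored 74.0 and 72.6 in control, 17.1 and 29.8 in R397W, 54.2 and 55.8 in Treg and 11.97 and 9.67 in Tconv libraries (a rise of 4.76 times, adjusted p = 1.50e-04). Near Il2, the cytokine gene that Treg cells keep silent, the site scored 29.2 and 26.3 in Treg and 17.6 and 18.02 in Tconv libraries and did not pass the test (adjusted p = 0.24). Genes of Foxp3 partner factors held 5 sites among 76 peaks (6.58%, against 8.81%), and 3 rose, against 82.5% of all 879: Gata3, Runx1 (3.79 times) and Foxo1. At Ikzf1, the Ikaros gene, both Tconv scores (35.9 and 32.1) were above both Treg scores (14.3 and 28.9), without passing the test (adjusted p = 0.174), and the R397W scores of 18.8 and 21.5 lay below the control scores of 49.4 and 38.0.

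Among markers of other cells that a CD4+ sort could hold, no site fell to a B cell gene (0 of 2 peaks) or a CD8 or NK cell gene (0 of 6 peaks), and 2 of 3 peaks at myeloid genes were lost sites, both at Cebpa, which encodes a myeloid transcription factor. These rose in Treg over Tconv cells by 8.88 and 3.66 times. BATF binding at a marker gene is not its expression, so what other cells contributed was not tested.

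The counts per gene that follow stand beside the 82.5% of all 879 sites that rose in Treg over Tconv cells. Lost sites without Foxp3 made up 8.81% of all peaks, and these genes were picked for having many. Among the genes with most sites was Runx2, a Runt family factor gene, with 5 sites among 8 peaks, all inside the gene and all higher in Treg than in Tconv cells. The strongest, chr17:44766293-44766693, scored 114 and 142 in control, 46.2 and 49.2 in R397W, 95.2 and 70.2 in Treg and 4.23 and 0.439 in Tconv libraries (adjusted p = 1.15e-05). The other 4 rose by 7.36, 6.97, 8.38 and 3.80 times, and the calls for the rises of 6.97 and 3.80 times were lost in the same 4 settings as those at Bach2. Kcnk10 had 4 BATF peaks in the table, and all 4 were lost sites without Foxp3. The strongest of them, chr12:98600862-98601262, scored 143 and 156 in control, 27.4 and 54.1 in R397W, 135 and 114 in Treg and 6.34 and 7.91 in Tconv libraries, and the nearest Foxp3 peak was 161269 bp or more from every one of the 4. Atxn1 had 4 sites among 12 peaks, with rises of 9.51, 4.75, 15.3 and 18.4 times. Asap1, Creb3l2 and Etv6 had 4 sites each, of which 3, 4 and 3 passed the test. With 3 sites each, all 3 higher in Treg cells, stood Ahnak, Ankrd55, Atxn7l1, Auh, Itgb8, Lcp2, Maml3, Msi2, Ppp2r5c, Rora, Stx11 and Trerf1. Itgb8, which encodes the integrin chain that pairs with αV, had no BATF peak in the table other than these 3. Of the 3 sites each at Anxa11, Cd44, Itpr1, Jmjd1c and Nol10, 2 passed the test, and at Akna and St6gal1 1 did.

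Although no Foxp3 peak overlapped these sites, 181 of the 879 (20.6%) had one within 10000 bp, 41 (4.66%) within 1000 bp and 564 (64.2%) within 100000 bp, and the median distance was 52196 bp. Among the peaks without Foxp3 above the ratio limit these shares were 13.8%, 2.61% and 53.2%. Over all BATF peaks, which include those on a Foxp3 peak, they were 33.7%, 24.5% and 64.5%. The differences between these shares were not tested. Of the sites with a Foxp3 peak within 10000 bp, 152 of 181 (84.0%) were higher in Treg than in Tconv cells, and of the others 573 of 698 (82.1%). The 181 sites had 205 neighbouring Foxp3 peaks. Foxp3 was higher in effector than in central Treg cells at 83 of these 205 (40.5%, against 15% of all 6396 Foxp3 peaks) and lower at 13 (6.34%, against 10.8%). The median difference was 0.65 log2, and -0.01 over all Foxp3 peaks. Without BATF (knockout against wild type) Foxp3 was lower at 27 of the 205 (13.2%, against 3.91% of all) and higher at 1 (0.488%, against 0.547%). The median difference was -0.21 log2, and 0.05 over all Foxp3 peaks. At 25 of the 27 peaks that were lower in the knockout, Foxp3 was also higher in effector than in central cells. The matching share over all Foxp3 peaks lower in the knockout is not given here. Both comparisons came from 1 fit with 1 estimate of spread per peak. The count of 25 is therefore not read as a trait of these neighbours. The count of 27 ran from 14 without the second wild-type library, and 15 without the first, to 43 without the first knockout library, and without the second effector library 54 peaks were higher in effector cells.

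Of the neighbouring Foxp3 peaks, the one with the largest rise in effector cells lay on chromosome 18 with no gene near, 1821 bp from a lost site, and scored 93.8 and 130.3 in effector, 4.00 and 7.41 in central, 116 and 122 in wild-type and 30.5 and 18.01 in Batf knockout libraries. Effector and central scores did not overlap, and neither did wild-type and knockout scores (adjusted p = 4.22e-05 for the knockout). The next was a peak on chromosome 10 with no gene near, with 46.9 and 61.7 in effector, 6.66 and 0.741 in central, 30.3 and 56.0 in wild-type and 5.08 and 1.29 in knockout libraries. At a peak assigned to Cc2d2a Foxp3 scored 54.5 and 98.6 in effector and 2.66 and 6.67 in central libraries, and 127 and 96.1 in wild-type and 46.7 and 18.01 in knockout libraries, where the knockout call was lost without the second knockout or the first wild-type library. At a peak assigned to Tfap2a, a transcription factor gene, it scored 24.1 and 18.5 in effector and 0 and 1.48 in central libraries, with no call in the knockout (adjusted p = 0.322). The deepest fall in the knockout was on chromosome 16 with no gene near, 905 bp from a lost site, from 48.5 and 44.3 in wild-type to 2.03 and 2.57 in knockout libraries, followed by the peak on chromosome 10 and by peaks assigned to Cpox, a gene of haem synthesis (22.2 and 37.6 to 2.03 and 2.57), and to Qrfprl (21.2 and 24.2 to 1.02 and 2.57). At each of these 4, the effector scores were also above the central scores.

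**Figure D5:**
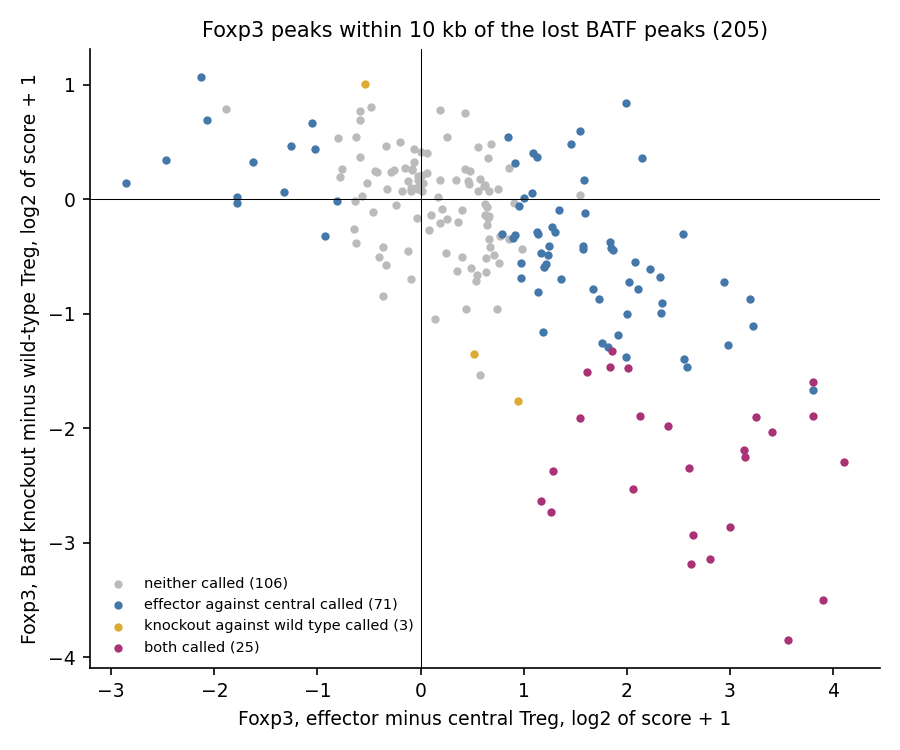
Foxp3 at the 205 Foxp3 peaks within 10000 bp of the lost BATF sites: log2 difference between effector and central Treg cells (horizontal) and between Batf knockout and wild-type Treg cells (vertical), 1 point per peak, coloured by which comparison passed the test. The 25 peaks called in both comparisons (purple) lie at the lower right, with Foxp3 higher in effector cells and lower without BATF. Both comparisons came from 1 fit, and the matching share over all Foxp3 peaks is not given here.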

How the data were processed

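The authors deposited 4 tables of peaks by libraries (2 for BATF, 1 for IRF4 and 1 for Foxp3) in mm10, most peaks 400 bp long, whose values are a normalised signal per peak; of 34 samples, 10 were inputs and were not used. DiffBind 3.12.0, MACS2 2.2.7.1, Bowtie2 2.4.1 and edgeR 3.38.4 were used, per the submitters' processing notes, which give here no role or order, and the labels name an anti-BATF antibody and an in-house anti-Foxp3 antibody. In all 4 tables the signal came in steps of whole reads (tolerance 0.01), from which reads in peaks were recovered.

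Groups were compared here on log2(signal + 1) with limma 3.58.1 (moderated test with a mean trend, R 4.3.3) fitted on all peaks of a table, with Benjamini-Hochberg adjustment and a threshold of 0.05. The BATF fit held the 4 Treg and Tconv libraries, the IRF4 fit 8 and the Foxp3 fit 8. Peaks were matched by an overlap of 1 bp, and genes and promoter windows came from RefSeq for GRCm38.p6. Whether the deposited starts count from 0 or 1 is not given in the sources used here, so positions may be 1 bp off. Sites were named by rule: the 10 with the highest control mean, the 8 with the lowest ratio, the 6 largest rises, the strongest sites of each gene list, the 3 on each side of the limit, the 4 largest and 4 smallest IRF4 changes, the 8 strongest in promoter windows, the 4 largest changes in each Foxp3 comparison, and genes with 3 or more sites. Other sites of listed genes, further sites of genes with several, and the sites of the printed sequences were named after their values were seen. The sites and the gene lists were chosen with earlier results of these data known. The test was also run on simulated data in which only peaks above the 25th percentile of signal were changed. In the BATF fit 323 of the 879 sites lay above it, so that run did not cover most of them. Its results are not given here. Other settings are given in the closing part.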

Additional observations from a re-analysis of the deposited data

Results flagged for a closer look

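Among 16 groups of 4 IRF4 libraries at the named sites, 3 had 1 Tconv library far from the other 3. For values without ties, chance gives about 1 such group in 20. The flagged values were 4.57 at 2510009E07Rik, where the other Tconv libraries were at 0, 5.41 at Maml3, likewise above 3 libraries at 0, and 56.8 at Mctp2. With 3 libraries at 0 any other value is flagged, so this rate does not apply at 2510009E07Rik and Maml3. At all 3 sites the Treg and Tconv scores did not overlap. The cause was not tested.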

How the results depend on the processing

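The 879 sites became 467 when both control scores had to be at least 40, and also 467 when every R397W value had to be at most 0.5 of every control value. Leaving out 1 library of the rule gave 881 to 1062 sites. The 725 sites with higher BATF in Treg cells became 263 (of 323) above the 25th percentile of signal, 399 (of 465) in the first BATF table, and 0 to 724 when 1 library was left out. Leaving out a library can leave 1 sample in an arm, which is then assumed to vary like the other group. Sites lower in Treg numbered 1 without the mean trend, 9 with quantile normalisation, and 0 to 1 when a library was left out. Quantile normalisation moved the median of all BATF peaks from -0.05 to -0.16 log2 and that of the sites to 1.70. When the sites were chosen without 1 of the 4 libraries of the rule, an alternative added after seeing the data, 689 to 785 were higher. The 346 higher IRF4 peaks ranged from 294 to 352 and the 2 lower ones from 1 to 3 when a library was left out, and 1 was lower without the mean trend.

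Foxp3 peaks higher in effector cells numbered 51 within 5000 bp and 217 within 50000 bp of a site, and 54 to 91 when a library was left out. Those lower numbered 8 and 68. Foxp3 peaks lower in the Batf knockout numbered 64 within 50000 bp and 14 to 43 when a library was left out. Those higher numbered 0 without the mean trend and with quantile normalisation, 5 within 50000 bp, and 0 to 1 when a library was left out. The cause of these changes was not tested, beyond the smaller or larger sets that the settings define.

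Direction reversed at Tcf7 (-0.34 log2 with quantile normalisation, -0.28 to 1.14 when a library was left out), at Celf3 (-0.11 with quantile normalisation, -0.11 to 1.21 when a library was left out) and at Cd37 (-0.11 to 0.28 when a library was left out), none of which passed the test on all libraries. Libraries of the same replicate number deviated together only weakly (r = 0.0943 for BATF, 0.0346 to 0.132 for IRF4, 0.139 and 0.0761 for the Foxp3 comparisons), and the labels tie no numbers to shared mice. With the replicate block, 753 BATF sites were higher and 2 lower, 358 IRF4 peaks were higher and 2 lower, and for Foxp3 82 were higher and 14 lower in effector cells and 28 lower and 1 higher in the knockout. The R397W and control libraries share no replicate number in their titles.

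The libraries that set the rule held few reads at the median site (29 and 14 in the controls, 9 and 22 with R397W), so membership near the limit is uncertain.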
